A study of Mus musculus with 12 samples.

Results

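The axoneme is the motor core of the motile cilium, and 73 protein-coding genes named for it were followed in mouse lung RNA. The members were all protein-coding rows of the deposited table of FPKM values (fragments scaled to gene length and library total) whose symbol begins with Cfap, Dnah, Dnai, Dnal, Rsph, Tekt or Drc and ends in a number with or without letters. They were 73 of 18912 protein-coding genes and of 35599 genes in all, namely 35 Cfap, 15 Dnah, 4 Dnai, 3 Dnal, 8 Rsph, 5 Tekt and 3 Drc genes. A narrower reading of the rule, with digits directly after the stem, would leave out Dnali1, Cfap97d1 and Cfap97d2 and keep 70. 

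Whole lung was sequenced from 3 groups of 4 samples. Saline lung served as control. AE-PF lung came from mice challenged with bleomycin (BLM) and lipopolysaccharide (LPS) to model an acute exacerbation of pulmonary fibrosis, with no drug given. ND-RHL lung came from mice given the same challenge and then liposomes that carried nintedanib and dexamethasone and were coated with hyaluronic acid and RGD peptides. The mouse strain, age, doses and time points are not given in the sources used here, and the labels do not say that the 4 samples of a group were separate animals, so p-values measure the spread between these samples. In whole tissue, fewer multiciliated cells and less axonemal RNA per cell cannot be told apart.

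Multiciliated cells of the airway each carry many motile cilia that move mucus toward the throat. Inside each cilium, outer microtubule doublets surround a central pair. Outer and inner dynein arms on the doublets are the motors, radial spokes and the central apparatus pass mechanical signals to them, and the nexin-dynein regulatory complex links neighbouring doublets. Tektins and other proteins lie inside the doublet walls and stiffen them. The genes are switched on together during ciliated cell differentiation by FOXJ1 and by transcription factors of the RFX family, which bind a promoter element called the X-box.

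Promoters of the members are shown because most of the genes moved together. RefSeq promoters (GRCm38.p6, 250 bases before to 50 after a transcript start) were at hand for 61 of the 73 members. The letters GTTGCC, the core of the X-box, occurred on either strand in 22 of these 61 genes (36.1%) and in 14.1% of all 27025 genes in the promoter table. A longer X-box form, in which this core is followed after a short gap by part of its mirror image and which therefore overlaps the core count, occurred in 4 of 61 (6.56%) and in 0.503% of all genes, and the forkhead core GTAAACA in 4 of 61 (6.56%) and 4.05%. The 4 with the long form were Cfap20dc, Cfap298, Cfap44 and Tekt4, the last with its match across the transcript start. Windows of 60 bases upstream of the start are printed on the gene's strand, with the match in capitals. A match to the opposite strand reads GGCAAC. The first 3 hold the long form: Cfap298 and Cfap44 fell in AE-PF lung (log2 -0.37 and -0.87), and Cfap20dc did not pass the test. The other 3, chosen for their falls, hold the core alone, and Tekt1 holds a further core match on the opposite strand, left in lower case. Among members with a promoter, the core occurred in 16 of 43 that fell (37.2%) and 2 of 6 that were tested and did not (33.3%). A match describes the letters only.
Cfap298, chr16:90935001-90935060, minus strand: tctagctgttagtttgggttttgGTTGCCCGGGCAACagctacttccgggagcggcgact
Cfap44, chr16:44394739-44394798, plus strand: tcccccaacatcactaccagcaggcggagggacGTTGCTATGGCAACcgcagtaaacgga
Cfap20dc, chr14:8666356-8666415, minus strand: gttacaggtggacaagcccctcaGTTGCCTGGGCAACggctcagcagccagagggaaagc
Drc1, chr5:30281333-30281392, plus strand: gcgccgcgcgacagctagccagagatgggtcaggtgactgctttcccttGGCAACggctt
Tekt1, chr11:72361883-72361942, minus strand: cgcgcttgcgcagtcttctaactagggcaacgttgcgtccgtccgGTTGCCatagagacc
Dnah10, chr5:124725025-124725084, plus strand: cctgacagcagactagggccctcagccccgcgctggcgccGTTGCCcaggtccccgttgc

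Each library held 16152379 to 21667129 counted fragments, recovered from the steps of the FPKM values. Libraries AE-PF 2 and ND-RHL 4 stood apart: 8 markers of stratified squamous epithelium summed to an FPKM of 1945 and 6434 there and to at most 7.57 in the other 10 libraries, and 8 skeletal muscle markers to 742 and 1712 against at most 134. Results are therefore also given without both. Markers of the cell type that the gene names imply were present in every library. The 13 multiciliated cell markers summed to 890 to 1051 in saline, 267 to 548 in AE-PF and 691 to 1033 in ND-RHL lung. The largest part of these sums was Sec14l3, with means of 531, 276 and 527. Sperm, the other common source of axonemes, was close to absent, with 7 testis markers summing to at most 0.344. The test took genes that reached an FPKM of 1 in 4 or more libraries, and 15164 genes, with 61 of the 73 members, did so. The 12 others are described separately.

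Axoneme transcripts were lower in AE-PF than in saline lung. Summed over all 73 members, saline libraries 1 to 4 held an FPKM of 381, 395, 315 and 329, AE-PF libraries 188, 153, 180 and 211, and ND-RHL libraries 410, 247, 303 and 235. Every AE-PF library thus lay below every saline and every ND-RHL library, and ND-RHL library 1 was the highest of the 12. The group means were 355 ± 38.8, 183 ± 24.2 and 299 ± 80.1 (SD, n = 4). Individual levels were modest: 59 members had a mean FPKM over the 12 libraries of at least 1, only Rsph1, Cfap36 and Cfap20 reached 10, and the median member stood at 3.11.

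**Figure D1:**
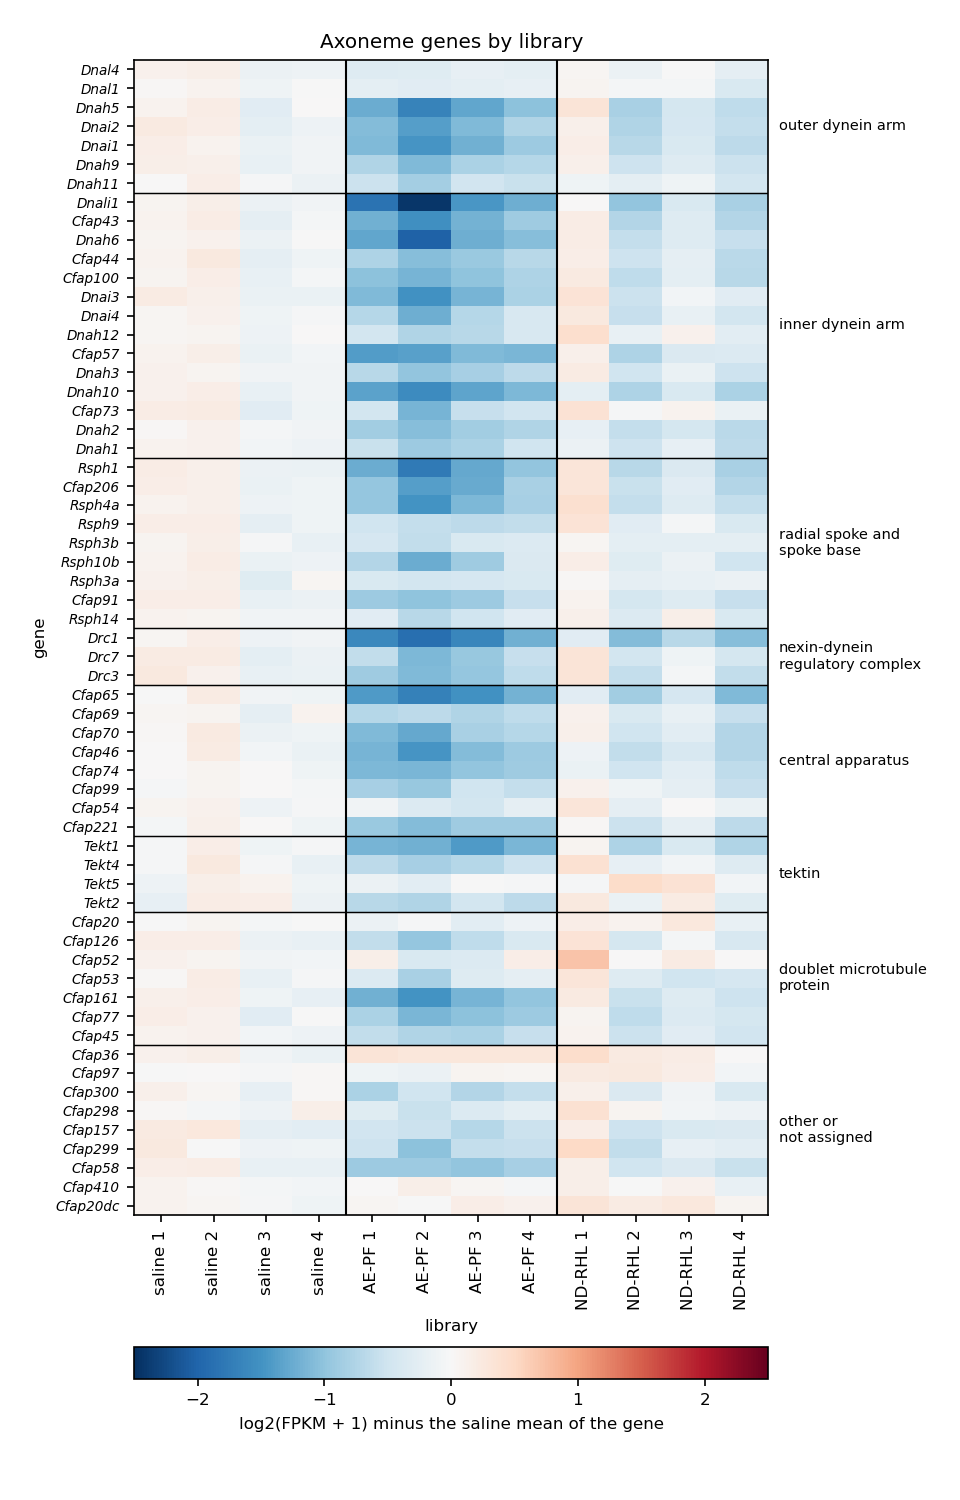
Heat map of the 61 tested axoneme genes (rows, grouped by role) in the 12 libraries (columns); colour gives log2(FPKM + 1) minus the gene's saline mean, blue lower and red higher. The AE-PF columns are blue for most genes, deepest in AE-PF library 2 (median -1.04), and ND-RHL library 1 has a median of 0.17 where the other ND-RHL libraries have -0.50 to -0.22.

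In the comparison of AE-PF with saline, which asks what the challenge changed, 52 of the 61 tested members fell and 1 rose. The background was high: 56.6% of all 15164 genes tested were called, 30.2% as lower and 26.4% as higher (limma, adjusted p under 0.05 after Benjamini-Hochberg adjustment over all genes). The median log2 change of the tested members was -0.79, from -1.74 to 0.29, beside -0.03 over all genes tested. Since genes enter the test partly through the group where they are high, the count over all 73 is given too. In 59 of them the 4 AE-PF libraries lay below the 4 saline libraries, and in 1 they lay above. In 13 the groups overlapped. Of the 61 tested members alone 53 lay below, beside 29% of all genes tested. The number of members that fell was 53 when these 2 doubtful libraries, AE-PF 2 and ND-RHL 4, were left out, and 49 after libraries had been scaled to equal FPKM totals, which raised the median of all genes by 0.11. Because 1 was added to each FPKM before the log2, changes at these low levels come out too small: with limma-voom on the recovered fragments the median was -1.08.

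Of the inner arm dyneins and their tethers, 14 of 14 tested members fell (median log2 -0.94). Here and below, log2 changes are those of FPKM + 1. Dnali1 encodes a light intermediate chain of the inner arm and lies on chromosome 4 (GRCm38 125055338 to 125065703, minus strand). Its FPKM was 14.8, 15.6, 12.6 and 13.1 in saline libraries 1 to 4, 3.20, 1.76, 4.43 and 5.47 in AE-PF and 14.2, 6.53, 10.5 and 7.52 in ND-RHL libraries. All AE-PF values were below all saline and all ND-RHL values, and ND-RHL library 1 reached into the saline range. The fall was the largest of the tested members on the log2(FPKM + 1) scale (log2 -1.74, SE 0.26, adjusted p = 0.000214). Dnah6, a heavy chain of the inner arm, went from 9.16 ± 0.788 to 2.96 ± 1.03 (log2 -1.40, adjusted p = 0.000221), with its lowest value, 1.48, in AE-PF library 2. Cfap43, part of the tether that holds an inner dynein to the doublet, went from 9.83 ± 1.34 to 3.73 ± 0.855 (adjusted p = 0.000428), and Dnai3, an intermediate chain also known as Wdr63, from 5.42 ± 0.845 to 1.92 ± 0.594 (adjusted p = 0.000406), each n = 4 per group.

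All 7 tested outer arm members fell, but by unequal amounts. Dnah5, a heavy chain whose human counterpart is often mutated in primary ciliary dyskinesia, went from 6.22 ± 0.969 to 1.93 ± 0.521 (log2 -1.31, adjusted p = 0.000493). The light chain genes Dnal1 and Dnal4 fell far less. Dnal1 was 6.58, 6.82, 5.87 and 6.39 in saline and 5.25, 5.10, 5.26 and 5.38 in AE-PF libraries (log2 -0.25, adjusted p = 0.0271), and Dnal4 went from 10.7 ± 1.24 to 8.71 ± 0.366 (log2 -0.27, adjusted p = 0.0151). Neither pair of groups overlapped, but the calls were fragile. With equal FPKM totals both were lost (0.241 for Dnal1 and 0.18 for Dnal4), and the Dnal1 call was also lost without a filter (0.0526), after quantile normalisation (0.0563) and without saline library 1, 2 or 4 or AE-PF library 1 or 2 (0.0511 to 0.073). Per length, the 2 light chains summed to 1.43 to 1.60 times the 3 heavy chains Dnah5, Dnah9 and Dnah11 in saline lung, to 2.73 to 4.56 times in AE-PF lung and to 1.33, 2.36, 1.96 and 2.02 times in ND-RHL libraries 1 to 4. This ratio was set up after the values had been seen.

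**Figure D2:**
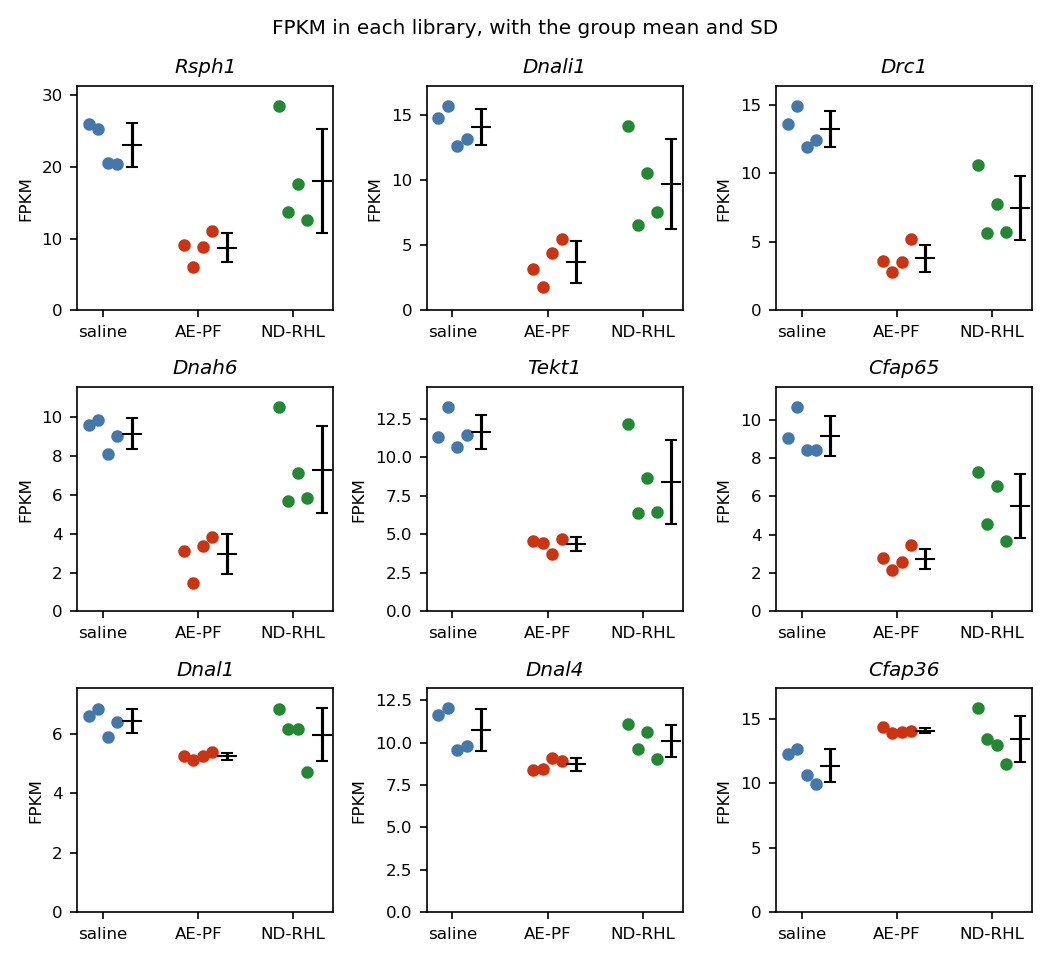
FPKM of 9 axoneme genes in each library (points, libraries 1 to 4 from left to right within a group), with the mean and SD of each group (black, n = 4); every axis starts at 0. Rsph1, Dnali1, Drc1, Dnah6, Tekt1 and Cfap65 show AE-PF libraries below all saline and all ND-RHL libraries, Dnal1 and Dnal4 fell less, and Cfap36 had a mean of 11.4 in saline and of 14.1 in AE-PF lung.

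All 9 tested genes of the radial spokes and their bases fell. Rsph1, a protein of the spoke head and the most abundant member (chromosome 17, GRCm38 31255019 to 31277383, minus strand), stood at 26.0, 25.3, 20.5 and 20.4 in saline, 9.08, 6.05, 8.87 and 11.1 in AE-PF and 28.5, 13.7, 17.6 and 12.6 in ND-RHL libraries. Every AE-PF value was below every saline and every ND-RHL value. The log2 change was -1.32 (SE 0.23, adjusted p = 0.000565). Rsph4a, also of the spoke head, went from 10.1 ± 1.01 to 4.204 ± 0.981 (adjusted p = 0.000977), and Cfap206, at a spoke base, from 10.8 ± 1.36 to 4.50 ± 0.989 (adjusted p = 0.000751). On the log2(FPKM + 1) scale the smallest changes of the class were those of Rsph3a (log2 -0.41), Rsph3b (-0.44) and Rsph14 (-0.44). Rsph14 went from 1.07 ± 0.135 to 0.536 ± 0.205, a level at which the added 1 makes a change come out too small. Rsph3a and Rsph3b are near-identical copies between which reads may be split, and Rsph10b is uncertain for the same reason.

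The 3 genes of the nexin-dynein regulatory complex fell. Drc1, which anchors the complex on the doublet (chromosome 5, GRCm38 30281388 to 30366695, plus strand), was 13.6, 14.9, 11.9 and 12.4 in saline, 3.61, 2.83, 3.55 and 5.19 in AE-PF and 10.6, 5.65, 7.76 and 5.74 in ND-RHL libraries. No 2 of the 3 groups overlapped. The log2 change in AE-PF was -1.59 (SE 0.18, adjusted p = 3.57e-05). Drc3 went from 6.62 ± 1.11 to 3.09 ± 0.580 (adjusted p = 0.00269) and Drc7 from 7.499 ± 1.35 to 3.85 ± 0.889 (adjusted p = 0.00365).

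In the central apparatus 7 of 8 tested members fell. Cfap65 showed the largest change of the class on the log2(FPKM + 1) scale, from 9.13 ± 1.05 to 2.73 ± 0.543 (log2 -1.45, adjusted p = 4.17e-05), followed by Cfap46 (log2 -1.15) and Cfap74 (-1.04). At a lower level, where the added 1 weighs more, Cfap221 went from 1.96 ± 0.208 to 0.535 ± 0.0913 (log2 -0.95). Cfap69 went from 5.25 ± 0.614 to 2.88 ± 0.145 (adjusted p = 0.000802) and Cfap70 from 3.91 ± 0.570 to 1.51 ± 0.438 (adjusted p = 0.000797). The member that did not pass was Cfap54 (1.48 and 1.04, adjusted p = 0.0666).

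Tektins and other doublet proteins were mixed. Tekt1, a filament protein inside the doublet wall, was 11.3, 13.2, 10.6 and 11.4 in saline and 4.60, 4.47, 3.75 and 4.70 in AE-PF libraries (log2 -1.23, SE 0.16, adjusted p = 8.03e-05). Tekt4 went from 4.05 ± 0.625 to 2.15 ± 0.276 (adjusted p = 0.00197). Tekt5, a tektin known from sperm, did not pass, at 2.08 ± 0.300 and 1.85 ± 0.234 (adjusted p = 0.484). Of 7 other doublet proteins, 4 fell, led by Cfap161 (log2 -1.21). Cfap126 was 9.01 ± 1.36 and 5.41 ± 1.07 (adjusted p = 0.00973). Cfap52, which lies inside the doublet, did not pass: it was 5.43, 5.28, 4.62 and 4.72 in saline and 5.67, 3.63, 3.74 and 5.72 in AE-PF libraries (adjusted p = 0.634), so that 2 AE-PF libraries lay above all saline values and 2 below. Cfap20, at the inner junction of the doublet, stood at 10.5 ± 0.367 and 9.43 ± 0.688 (adjusted p = 0.164), but fell once the 2 doubtful libraries were left out (adjusted p = 0.0195).

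Among 9 tested members outside these classes, 5 fell and 1 rose, beside 30.2% and 26.4% of all genes tested. Their median log2 change was -0.37. Cfap300, an assembly factor of the dynein arms, went from 5.66 ± 0.618 to 3.23 ± 0.377 (adjusted p = 0.000686). Cfap36, a binding partner of the small GTPase ARL3, was the member that rose: its FPKM was 12.3, 12.6, 10.7 and 9.96 in saline and 13.9 to 14.3 in the 4 AE-PF libraries, so that every AE-PF library lay above every saline library (log2 0.29, SE 0.09, adjusted p = 0.0178). The call was lost without saline library 4 (adjusted p = 0.0538). Cfap97, Cfap410 and Cfap20dc did not pass, with log2 changes of -0.04, 0.05 and 0.08 and adjusted p of 0.706, 0.621 and 0.44.

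The 12 members below the filter were Cfap47, Cfap61, Cfap97d1, Cfap97d2, Dnah14, Dnah17, Dnah7a, Dnah7b, Dnah7c, Dnah8, Rsph6a and Tekt3. Tekt3 had 23, 23, 17 and 11 fragments in saline, 1, 0, 3 and 3 in AE-PF and 12, 7, 8 and 14 in ND-RHL libraries. Dnah7a, Dnah7b and Dnah7c are copies on chromosome 1 between which reads may be split. Only Dnah7b and Dnah7c lie close together. Each had a lower mean in AE-PF (0.64, 0.61 and 0.84 in saline beside 0.35, 0.39 and 0.42). The AE-PF and saline libraries of Dnah7a overlapped. With genes kept by a mean FPKM of at least 0.5 over all 12 libraries, 5 more members were tested (Cfap61, Cfap97d2 and the 3 Dnah7 copies). All 5 fell in AE-PF (adjusted p of 0.00707 to 0.0389). Their AE-PF means were 0.347 to 0.458, so they passed this filter through saline and ND-RHL lung. Their falls are therefore no independent support. Dnah17, a heavy chain of the sperm outer arm, had 83 to 105 fragments in saline and 84 to 90 in AE-PF libraries. Rsph6a, a spoke head protein of sperm, had at most 1 fragment in any library.

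Other genes of the cilium were counted from lists that leave the members out. Of 33 tested axoneme genes with other names, 29 fell in AE-PF and 1, Nme7, rose (median log2 -0.77), including Lrrc23, a radial spoke protein (27.0 ± 3.09 to 5.73 ± 2.72, log2 -2.15, adjusted p = 7.67e-05), and Dynlrb2, a dynein light chain (38.1 ± 3.04 to 16.6 ± 3.57, adjusted p = 0.000362). All 5 genes of the docking complex, which seats the outer arm, fell (median -0.72; Odad3 from 4.25 ± 0.720 to 1.26 ± 0.383, and Efcab1 from 3.49 ± 0.282 to 1.95 ± 0.342), as did all 7 tested dynein arm assembly factors of 8 measured (median -0.66; Dnaaf5 from 7.18 ± 0.994 to 5.90 ± 0.352, and Dnaaf3 from 3.84 ± 0.495 to 1.96 ± 0.409). Foxj1, the master regulator of motile cilia, was 52.1, 58.0, 38.6 and 40.3 in saline and 17.7, 15.2, 17.2 and 22.1 in AE-PF libraries (log2 -1.33, SE 0.17, adjusted p = 7.9e-05). Of 10 tested regulators of multiciliated cells, from 15 measured, 9 fell and 1, the cell cycle factor Tfdp1, rose (median -0.40). The regulators below the filter were not tested but had lower means in AE-PF than in saline lung. They were Gmnc (0.982 in saline and 0.0805 in AE-PF), Ccno (1.05 and 0.246), Mcidas (0.359 and 0.0884), Cdc20b (0.247 and 0.0393) and Foxn4 (0.183 and 0.0298). Among them only Foxn4 had overlapping groups. Tfdp1 went from 11.5 ± 0.709 to 19.2 ± 1.69 (adjusted p = 3.58e-05), and its partner E2f4 from 23.5 ± 0.612 to 19.3 ± 2.32 (adjusted p = 0.0112). Genes of intraflagellar transport, which build primary as well as motile cilia, had a median log2 change of -0.18. Of 28 tested, 11 fell and 1, the motor gene Kif3b, rose. Over all genes tested 30.2% were called lower and 26.4% higher, so this count was not far from the background. Ift20 was 28.4 ± 1.63 and 28.8 ± 1.57 (adjusted p = 0.771), and Traf3ip1 fell from 20.6 ± 2.51 to 12.1 ± 1.69 (adjusted p = 0.00143). The difference between lists was not tested.

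The comparison of ND-RHL with AE-PF asks what the liposomes changed in challenged lung. Of the 61 tested members, 46 rose and 0 fell, beside 41.8% of all genes tested that were called, 24.3% as higher and 17.4% as lower. The median log2 change was 0.55, from -0.07 to 1.20, beside 0.06 over all genes tested. Over all 73 members the 4 ND-RHL libraries lay above the 4 AE-PF libraries in 47 and below in 0. Of the 61 tested members alone 41 lay above, beside 21.2% of all genes tested. The number that rose was 45 when libraries AE-PF 2 and ND-RHL 4 were left out. It was 38 with equal FPKM totals, and also 38 after quantile normalisation. AE-PF lung is part of both comparisons, so a low AE-PF value enters the fall and the rise alike.

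The largest log2 rises were those of 3 inner arm genes. Dnali1 went from 3.71 ± 1.60 to 9.69 ± 3.44 (log2 1.20, SE 0.26, adjusted p = 0.00426) and Dnah6 from 2.96 ± 1.03 to 7.29 ± 2.24 (log2 1.07, SE 0.21, adjusted p = 0.00242). Dnai3 went from 1.92 ± 0.594 to 4.93 ± 1.56 (log2 1.01, adjusted p = 0.00189), and the spoke head gene Rsph1 from 8.77 ± 2.07 to 18.1 ± 7.23 (log2 0.92, adjusted p = 0.00828). By class, 13 of 14 inner arm, 5 of 7 outer arm, 8 of 9 spoke, 3 of 3 nexin-dynein, 7 of 8 central apparatus, 3 of 4 tektin, 4 of 7 other doublet and 3 of 9 remaining genes rose. Over all genes tested 24.3% rose, and the remaining genes lay closest to that share. The light chain genes Dnal1 and Dnal4 did not pass (log2 0.15 and 0.19, adjusted p = 0.184 and 0.0823), but did without ND-RHL library 4 (adjusted p = 0.00779 and 0.0398). The Cfap126 call (adjusted p = 0.0403) was lost in 10 of 21 alternatives, with an adjusted p of up to 0.105. Leaving out AE-PF library 2 also ended the calls of Drc7 (adjusted p = 0.0521) and Drc3 (0.0529), and leaving out ND-RHL library 3 those of Drc3 (0.0571) and Cfap69 (0.0506), which scaling to equal totals (0.056) and quantile normalisation (0.0691) ended too. Without ND-RHL library 4, Cfap20 (0.00322), Cfap97 (0.00784) and Tekt5 (0.0353) passed as higher. Cfap36 and Cfap410 did not pass (log2 -0.07 and -0.04), nor did Cfap20dc (0.14).

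ND-RHL lung was also set against saline lung, to see what remained. Of 61 tested members 6 were lower and 0 higher, beside 21.9% of all genes tested that were called, 8.65% as lower and 13.3% as higher. The members were thus called lower about as often as all genes, and called in either direction less often. The median log2 change was -0.24, with 51 of 61 members below 0, beside a median of 0.03 over all genes tested. The 6 were Drc1 (log2 -0.78, adjusted p = 0.0128), Cfap65 (-0.67, 0.0186), Dnah10 (-0.54, 0.0216), Dnah2 (-0.48, 0.0112), Cfap46 (-0.46, 0.0455) and Cfap74 (-0.39, 0.0255). In these genes except Cfap46 all 4 ND-RHL libraries lay below all 4 saline libraries. In Cfap46 ND-RHL library 1 (3.42) lay above saline library 4 (3.30). Such separation was not more common than over all genes. Of the 61 tested members 6 lay below all saline libraries and 0 above, beside 11.8% and 18.1% of all genes tested. Over all 73 members 6 lay below and 1 above. Cfap65 was 9.05, 10.6, 8.43 and 8.41 in saline and 7.27, 4.54, 6.54 and 3.67 in ND-RHL libraries, and its call was lost without saline library 2 (adjusted p = 0.0582) or ND-RHL library 2 (0.053). Of the 6, Cfap46, Cfap74, Dnah10 and Dnah2 were named after their values had been seen. Foxj1 was 35.8, 21.7, 24.1 and 24.1 in ND-RHL libraries, below all saline libraries (log2 -0.82, SE 0.17, adjusted p = 0.00801).

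This last count turned on ND-RHL library 1. The median log2 level of the tested members relative to saline was 0.17 in that library and -0.50, -0.22 and -0.47 in ND-RHL libraries 2 to 4. Without library 1, 28 of 59 tested members were lower than in saline lung and 0 higher, beside 7.64% of 15018 genes tested that were lower, and the median was -0.42. Rsph1 (log2 -0.63, adjusted p = 0.0352), Dnah5 (-0.63, 0.0242) and Tekt1 (-0.64, 0.00517) were among the 28. The count was 2 without ND-RHL library 2, also 2 without saline library 2, and 3 without saline library 1. Without ND-RHL library 4 it was 3 lower and 3 higher, the latter being Cfap36 (log2 0.29, adjusted p = 0.0426), Cfap97 (0.21, 0.034) and Cfap20dc (0.26, 0.0445).

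**Figure D3:**
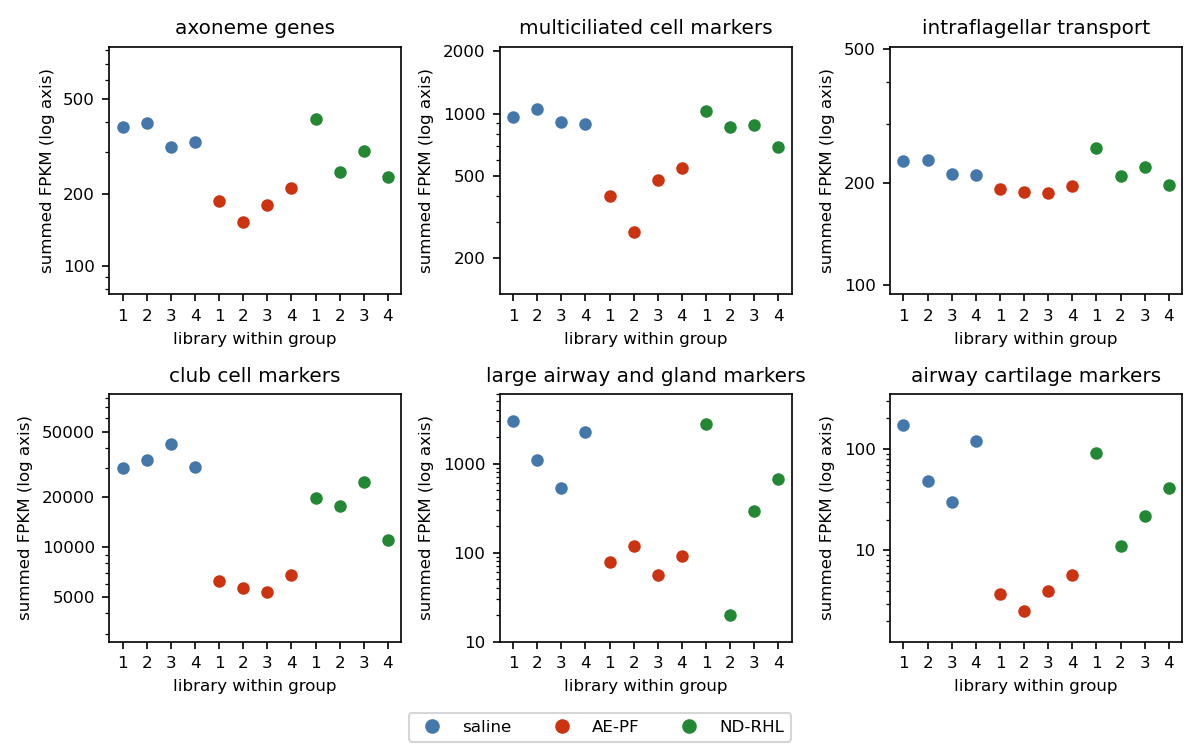
Summed FPKM (log axis) of the 73 axoneme genes and of 5 marker lists in each library; colours give the group and the horizontal axis the library number. All sums shown except that of the large airway markers are lowest in the 4 AE-PF libraries, intraflagellar transport only narrowly (at most 196, and at least 198 elsewhere). The large airway markers of ND-RHL library 2 (19.99) lie below every AE-PF library although its axoneme genes (247) lie above them.

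Markers of the large airway were lower in AE-PF than in saline lung, as the axoneme genes were, but varied widely between ND-RHL libraries. Summed over 8 markers of large airway surface and glands, saline libraries 1 to 4 held an FPKM of 3013, 1092, 534 and 2282, AE-PF libraries 78.4, 119, 56.3 and 92.5 and ND-RHL libraries 2770, 19.99, 292 and 671. Bpifa1, a secreted protein of the upper airway, had the highest level, with 216 to 1738 in saline, 18.8 to 49.4 in AE-PF and 2.53 to 1818 in ND-RHL libraries, and Scgb3a1, a secretoglobin, followed (483 ± 195, 40.6 ± 9.31 and 207 ± 228). Airway cartilage markers summed to 30.0 to 173 in saline, 2.53 to 5.75 in AE-PF and 91.0, 11.1, 21.7 and 41.2 in ND-RHL libraries. ND-RHL library 1 was the highest ND-RHL library in axoneme genes, large airway and cartilage markers. Within saline lung the large airway sum varied from 534 to 3013 and the axoneme sum from 315 to 395. In ND-RHL library 2 the large airway sum (19.99) was below every AE-PF library while the axoneme sum (247) was above every AE-PF library (153 to 211). Beyond these values, the part of large airway content in the axoneme changes was not tested.

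Of 7 tested large airway markers 6 were lower in AE-PF and 1 higher in ND-RHL than AE-PF lung, and of 3 tested cartilage markers 2 and 2. The 2 most abundant cartilage markers were Cytl1 (53.1 ± 45.1, 1.25 ± 0.671 and 24.4 ± 22.1 in saline, AE-PF and ND-RHL lung) and Chad (34.3 ± 15.9, 1.53 ± 0.685 and 13.6 ± 9.89).

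Club cell and alveolar type 2 markers moved in the same directions as the axoneme genes. All 8 club cell markers were lower in AE-PF lung and 7 of 8 rose again with ND-RHL (median log2 -1.82 and 1.29). The 2 most abundant, Scgb1a1 and Cbr2, had log2 changes of -2.59 and 1.58, and of -2.82 and 2.31. All 8 alveolar type 2 markers were lower and then higher (-1.70 and 1.70), among them the 2 most abundant, Sftpc (-2.36 and 2.21) and Sftpb (-1.46 and 1.25). Of the 13 multiciliated cell markers all 13 were lower in AE-PF and 12 higher in ND-RHL lung (-1.09 and 0.95), among them Sec14l3 (531 ± 42.6, 276 ± 103 and 527 ± 91.2 in saline, AE-PF and ND-RHL lung) and Tppp3 (167 ± 6.21, 38.0 ± 5.19 and 133 ± 19.9). These 13 are not separate from the lists above: Dynlrb2 and Lrrc23 are also axoneme genes with other names, and Foxj1 is also a regulator. Neither Krt15 nor Krt5, the tested basal cell markers, passed in either comparison: the 4 listed summed to 1.34 to 26.9 in saline, 0.656 to 57.6 in AE-PF and 0.442 to 273 in ND-RHL libraries. The 1 tested squamous marker passed as higher in AE-PF, and none of 4 tested muscle markers passed in these comparisons. Krt13 (899 and 2948) and Krt4 (689 and 2408) had the highest FPKM of the squamous list, and Acta1 (368 and 955) and Tnnt3 (135 and 301) of the muscle list, in libraries AE-PF 2 and ND-RHL 4.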

How the data were processed

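Polyadenylated lung RNA of 12 samples was sequenced on a DNBSEQ-G400 per the labels' protocols. The authors deposited 1 table of FPKM values, with 1 column per sample; the submitters' processing notes give no roles for the tools they list (STAR 2.7.9a for one, with Subread 2.0.1, Trim Galore 0.6.6, featureCounts, FastQC and DESeq2 1.30.1), and name the builds GRCm38 and mm10. Strand and multi-mapping settings are not given in the sources used here, and 29 members share exon bases with another gene, 5 of them over 10% (Cfap298, Tekt2, Cfap299, Cfap157 and Dnah3). Coordinates are from GENCODE M21 (GRCm38) by gene identifier, which matched all 73. Columns were matched to samples by title.

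Library totals and whole fragments (within 1e-05) were recovered from the FPKM steps for 35599 of 35599 genes. A floor of 3 fragments equals an FPKM of 0.101 to 0.135 for Rsph1, which held 150 to 774 fragments per library. This floor does not measure the counting error of that gene.

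limma 3.58.1 under R 4.3.3 fitted log2 of FPKM plus 1 across all 12 libraries, allowing the variance to follow the mean. Tests were 2-sided, adjusted by Benjamini-Hochberg over the 15164 genes that reached FPKM 1 in 4 or more libraries, at a threshold of 0.05; the script was tested on simulated data. Adjusted p are from this fit unless another is named. Alternatives were another pseudocount, other filters, equal FPKM totals, quantile normalisation, limma-voom on the recovered fragments, a replicate block, only the groups compared, and each library, or libraries AE-PF 2 and ND-RHL 4 together, left out.

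Named members were, by rule, the 3 with the highest mean in each role class. The 4 at either end of the changes in the first 2 comparisons were added, with members called against the majority. Foxj1 and the 2 highest genes of each list were named too. Other members given with values, among them Cfap161, Cfap54, Rsph14 and Tekt3, fall outside this rule. They are not counted as named members below. Roles were assigned by hand; Cfap20 was moved from the central apparatus to the doublet proteins after its values had been seen. The members and lists were chosen with earlier results of these data known. Same-numbered ND-RHL and saline libraries deviated together (correlations of 0.40, 0.19, 0.11 and 0.17), while the other pairs ranged from -0.39 to 0.34; the labels do not say what the numbers mark.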

Additional observations from a re-analysis of the deposited data

Results flagged for a closer look

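Of 84 sets of 4 libraries examined (27 named members and Foxj1 in 3 groups), 1 held a library far from the others: Cfap69 stood at 4.34 in saline library 3 and at 5.48 to 5.63 in the other 3 saline libraries, a gap of 0.88 of the range. Chance alone marks about 1 in 20 such sets, or 4.2 of 84.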

How the results depend on the processing

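No call of a named member reversed in any of 21 alternatives. Of the refits of single named members, 1637 kept their side of the threshold, 24 newly passed it and 28 no longer did. Of the 52 members lower in AE-PF than saline lung, 48 were lower in every alternative. Of the 46 higher in ND-RHL than AE-PF lung, 34 were. Of the 6 lower in ND-RHL than saline lung, 2 were (Dnah2 and Drc1). The median change in AE-PF against saline was -1.03 with a pseudocount of 0.1 and -1.08 with limma-voom; the smaller added constant shrinks low values less. With no filter on low values 3 members differed between ND-RHL and saline lung; more genes were then tested.

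Leaving out each library in turn gave 50 to 54 members called in AE-PF against saline (medians -0.88 to -0.71), 37 to 52 in ND-RHL against AE-PF (0.44 to 0.66) and 2 to 28 in ND-RHL against saline (-0.42 to -0.17). With the replicate number as a block, 54, 45 and 5 members were called, and no call of a named member changed. Members below an FPKM of about 1 are limited by depth.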
